A study of Mus musculus with 4 samples.

Results

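The clustered protocadherin genes are the Pcdha, Pcdhb and Pcdhg genes that lie in a row on mouse chromosome 18. Members were taken by name and position alone, as the protein-coding genes of the GENCODE annotation whose symbols begin with Pcdha, Pcdhb or Pcdhg. This gave 57 genes of 21938 coding genes, namely 14 Pcdha, 22 Pcdhb and 21 Pcdhg genes. They run from position 36930184 to 37841873 on mm10, all on the plus strand. Open regions, formed by merging the peaks of all libraries, were kept if they overlapped this 912 kb span or the 50 kb on either side of it, which left 24 of 82641 regions.

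ATAC-seq, in which the Tn5 transposase cuts accessible DNA, had been run on EpCam+ CD49f-high epidermal keratinocytes sorted from the skin of female mice 8 to 12 weeks old. All mice had received a cream with 5% imiquimod on the skin for 8 days, so an untreated state was not measured. Libraries WT 1 and WT 2 came from wild-type mice. Libraries Mapk8-KO 1 and Mapk8-KO 2 came from mice in which a keratin 14-driven Cre had removed loxP-flanked Mapk8, the gene of the kinase JNK1. Deletion is thus limited to cells with keratin 14 promoter activity, and littermates served as controls in the study's methods. The libraries address how loss of JNK1 changes the open chromatin of inflamed keratinocytes.

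Clustered protocadherins are cell surface adhesion proteins, best known for giving single neurons an identity by which their branches recognise and avoid themselves. Each Pcdha and Pcdhg gene has its own promoter and large variable exon, which is spliced to constant exons shared by the whole group, whereas Pcdhb genes have no constant exons. In neurons, the choice among variable promoters depends on CTCF, cohesin, DNA methylation and distal enhancers. The C-type genes Pcdhac1, Pcdhac2, Pcdhgc3, Pcdhgc4 and Pcdhgc5 stand at the end of their groups and are regulated apart from the others.

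Depth differed within each genotype. Peak lists held 49856 to 69927 intervals, and the depth recovered from summit pileups, relative to WT 1, was 0.694 for WT 2, 1.12 for Mapk8-KO 1 and 0.646 for Mapk8-KO 2. Of 9 keratinocyte markers, 3 had a called promoter in all 4 libraries at the annotated gene start and 5 at any transcript start, against 49.0% and 52.2% of all coding genes, so that these counts say little about cell identity. Of 8 genes of cells that the sort removes, none was called at its gene start, although Pdgfra was called at another transcript start. Of 6 melanocyte and 3 Merkel cell markers, Pmel, Mitf and Isl1 were called in all 4 libraries at the gene start. At annotated transcript starts Mitf and Isl1 were called in all 4, but Pmel in none. Dct, Tyr, Tyrp1, Sox10, Atoh1 and Krt20 were called in no library by either measure. The part of such cells in the protocadherin calls was not tested.

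Few protocadherin promoters were open. The promoter of a gene was taken as called where a region with a peak in that library came within 500 bp of the gene start. Only 4 of 57 members (7.02%) were called in all 4 libraries, those of Pcdhac2, Pcdhgb6, Pcdhgc3 and Pcdhgc4, against 49.0% of all coding genes. Another 2, Pcdhga6 and Pcdhgb1, were called in 3 and in 1 library, which brought the share called at least once to 10.5%, against 57.2% of all coding genes. The remaining 51 members had no called promoter in any library. Because a peak list holds only what passed the caller, an uncalled promoter had no opening detectable at this depth, which is not the same as being closed. The lowest summit pileup in the lists was 8 to 10 fragments.

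The groups differed in layout. Among Pcdha genes, the last one, Pcdhac2, was called, and the other 13 were not. None of the 22 Pcdhb promoters was called in any library. Of the Pcdhg genes, 3 were called in all 4 libraries, 2 in some and 16 in none. Among the C-type genes, 3 of 5 were called in all 4 libraries, against 49.0% of all coding genes. Pcdhac1 and Pcdhgc5 were called in none, the nearest regions lying 53393 and 2985 bp from their starts.

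The uncalled Pcdha and Pcdhb genes sat in long empty stretches. From position 37218435 to 37643770, 425 kb held no region in any library, and this stretch contained every Pcdhb start. A second stretch of 341 kb, from 36802079 to 37143405, contained the starts of the 13 uncalled Pcdha genes. Between neighbouring regions of the whole atlas the median distance was 9.24 kb. Of 82620 distances, 664 (0.804%) and 915 (1.11%) were at least as long as these. Such a share of distances is not a share of the genome, of which long stretches cover more than short ones. The Pcdhg genes were different, with 61.1 regions per Mb against 7.77 in the Pcdha genes, 0 in the Pcdhb genes and 30.3 over the genome.

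**Figure D1:**
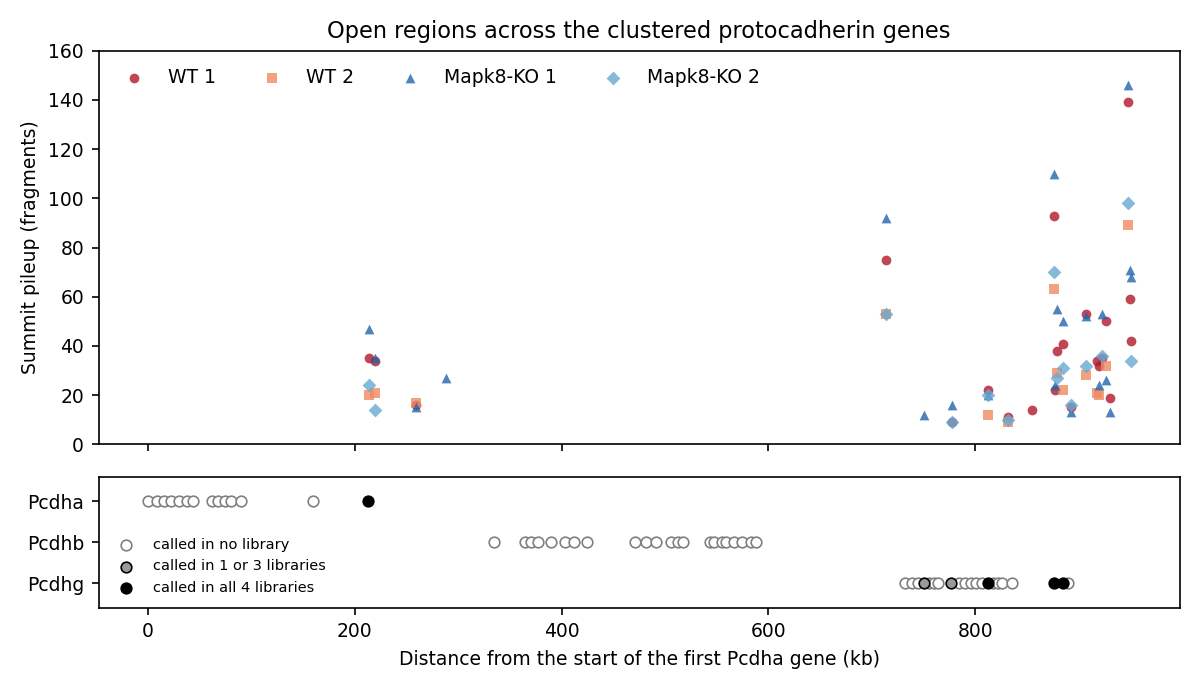
Open regions across the clustered protocadherin genes. The upper panel shows the summit pileup in fragments of each region in each library that called it, against the distance in kb from the start of the first Pcdha gene, and the lower panel marks the start of each member by the number of libraries that called its promoter. The Pcdhb starts lie in a stretch without a point in the upper panel, and called promoters stand at the end of the Pcdha group and within and near the end of the Pcdhg group.

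The Pcdhgc3 promoter was the strongest of the members. Here and below, a run of 4 values follows the order WT 1, WT 2, Mapk8-KO 1, Mapk8-KO 2. Its region, 37806056 to 37806795, had 93, 63, 110 and 70 fragments at the summit, at a fold enrichment over local background of 11.01, 10.6, 11.6 and 11.8. Since depth differed, each fold was also given as a percentile among the 40159 regions called in all 4 libraries, taken separately by library. By this measure the Pcdhgc3 promoter stood at 68.1, 69.4, 72.6 and 83.2, in the upper part of open regions throughout. Its summit lay at −41 bp from the gene start, inside an exon of the antisense gene BC037039. Opening extended into the gene. A region from 37806994 to 37807288 was called only in the deeper library of each genotype, at 22 fragments in WT and 24 in Mapk8-KO, and another in the Pcdhgc3 exon, 37808679 to 37809030, reached 38, 29, 55 and 27. The exonic region ranked low, at percentiles 4.04 to 13.3, beside a local background of 4.99 to 8.60 fragments, against 5.01 to 8.53 at the promoter.

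Pcdhgc4 came next in fragments. Its promoter region was 1189 bp wide, 37814326 to 37815514, with 41, 22, 50 and 31 fragments at a summit at −363 bp from the gene start. Fold enrichments were 7.94, 7.44, 10.3 and 9.56, over a local background of 4.29, 2.09, 3.94 and 2.35 fragments. The percentiles of 36.3, 35.2, 61.0 and 65.4 were higher in both Mapk8-KO libraries than in both WT libraries, whereas the raw fragment counts overlapped between genotypes.

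Pcdhac2, the C-type gene nearest to the Pcdha constant exons, had an open region of 1099 bp that covered its start, 37143406 to 37144504. Its summit, 377 bp inside the variable exon, had 35, 20, 47 and 24 fragments. Percentiles of 39.6, 22.7, 52.9 and 34.01 overlapped between genotypes, and the deeper library of each genotype was the higher one. Another region lay 5964 bp after the start, in the Pcdhac2 intron from 37149150 to 37149682. It reached 34, 21, 35 and 14 fragments and percentiles of 67.9, 50.3, 59.95 and 18.9, with Mapk8-KO 2 well below the other libraries.

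Pcdhgb6 was the only member outside the C-type genes called in all 4 libraries. Its region from 37741972 to 37742361 had 22, 12, 20 and 20 fragments at a summit at −33 bp from the gene start. With so few fragments the 95% Poisson intervals, which cover counting error only, overlapped widely, from 13.8 to 33.3 for WT 1 and from 6.20 to 20.96 for WT 2. Percentiles were 29.9, 9.46, 14.6 and 50.5, and the Mapk8-KO libraries lay on both sides of WT 1.

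Pcdhga6 was weaker still, at 9 fragments in WT 1 and 16 and 9 in the Mapk8-KO libraries, without a call in WT 2. Pcdhgb1 was called in Mapk8-KO 1 alone, at 12 fragments, near the lowest pileup of that list, 10. A region before the start of Pcdhgb8, 37761365 to 37761694, had 9 to 11 fragments in 3 libraries, but Pcdhgb8 is annotated as a polymorphic pseudogene and is no member. Within the Pcdhg introns, 2 other weak regions were called in 1 and in 3 libraries, at 13 to 16 fragments.

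The Taf7 promoter gave a reference within the same span. Taf7 encodes a subunit of the general transcription factor TFIID and lies, on the minus strand, between the Pcdhb and Pcdhg genes. Its region from 37643771 to 37644562 had 75, 53, 92 and 53 fragments and stood at percentiles 96.5 to 99.6. The highest percentile of a member promoter was 83.2, that of Pcdhgc3 in Mapk8-KO 2.

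Sequence features that played no part in the choice of members were then compared between called and uncalled promoters. CpG content was taken as the ratio of observed to expected CpG in 1001 bp around the gene start. Its median was 0.682 in Pcdha, 0.378 in Pcdhb and 0.594 in Pcdhg genes, against 0.552 over all coding genes. Ratios of 0.6 or more were found in 22 members, of which 4 (18.2%) were called in all 4 libraries, whereas 83.1% of the 10083 coding genes with such a ratio were called in all 4. Between 0.3 and 0.6, 0 of 27 members and 40.9% of 4589 coding genes were called in all 4. Below 0.3, the counts were 0 of 8 members and 6.87% of 7266 coding genes.

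The 4 members called in all libraries had ratios of 0.658 to 0.797, within the range of the uncalled members, which reached 0.864 in Pcdhga11. Of the 13 uncalled Pcdha genes, Pcdhac1 had the lowest ratio, 0.564, and Pcdha6 the highest, 0.749. Members with ratios of 0.6 or more were thus found on both sides, while all Pcdhb promoters were below 0.6. GC content of the same windows differed more. Its median was 54.1% in the 4 members called in all libraries, 44.7% in members called in none and 54.7% in all coding genes. Uncalled Pcdhac1, with a ratio below 0.6, had 55.8%. The part of GC content in the calls was not tested.

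**Figure D2:**
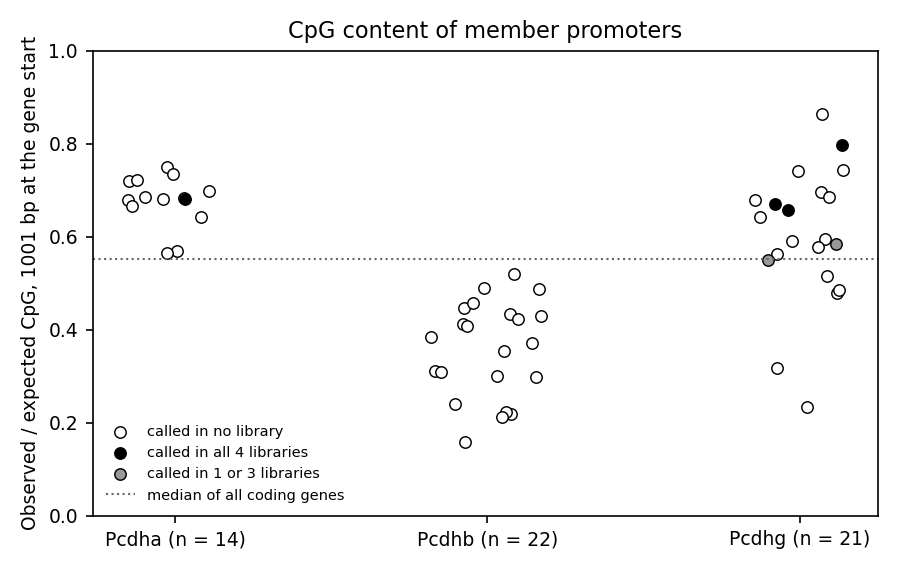
CpG content of the 57 member promoters by gene group. Each point is a gene, its height is the ratio of observed to expected CpG in 1001 bp at the gene start, its fill shows the number of libraries that called it, and points are spread sideways for legibility. The dotted line marks the median of all coding genes, 0.552, and the uncalled Pcdha genes all lie above it.

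Protocadherin genes resemble each other, and the authors removed reads with several alignments, so the share of unique sequence is given beside the calls. Its part in them was not tested. Of the 32-base words in the 1001 bp around the gene start, a median of 78.8% were unique in the genome for Pcdha genes, 100% for Pcdhb genes and 98.5% for Pcdhg genes. The lowest share of any member was 71.0%, for Pcdhgb4. Pcdhgb6 had 80.4% unique words, and 12 of the 22 Pcdhb promoters were unique throughout.

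Motifs were searched within 100 bp of each summit, on both strands. CTCF binds many variable promoters and enhancers of the cluster in neurons. A fixed-letter core of the CTCF motif occurred in 0 of the 24 regions, against 4.63% of all 82641 regions. In the wider window of 1001 bp around the gene start, it occurred in 1 of 57 members, Pcdhac2, against 7.09% of coding genes. A missing match says only that these letters are not in the window.

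The AP-1 motif TGACTCA, bound by Fos and Jun proteins, was found in 5 of 24 regions (20.8%), against 23.7% of all regions. These were the Pcdhac2 intron, a region just past the end of the Pcdha genes and 3 regions in Diaph1, and no member promoter was among them. Of these 5, WT 1 called 5, WT 2 called 4, Mapk8-KO 1 called 5 and Mapk8-KO 2 called 1. Of the 19 regions without the motif, the libraries called 17, 10, 16 and 13. The low count for the motif regions was thus in Mapk8-KO 2 and not in Mapk8-KO 1, and was noticed after the values were seen.

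Beyond the member promoters, 5 regions were called in all 4 libraries. They were the Pcdhac2 intron, the Pcdhgc3 exon, the Taf7 promoter, a Pcdhg intron and a Diaph1 intron. The interval between the Pcdha constant exons and Pcdhb1, in which the HS5-1 enhancer of the Pcdha genes is known to lie, held 2 regions, neither called in all 4 libraries. The first, 37188939 to 37189283, reached 16 fragments in WT 1, 17 in WT 2 and 15 in Mapk8-KO 1, at percentiles 10.8, 31.5 and 4.09. The second, 37218262 to 37218434, was called in Mapk8-KO 1 alone, at 27 fragments and percentile 35.8 over 173 bp, where the shortest interval of that list was 153 bp. Neither was called in Mapk8-KO 2.

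The 3′ end of the Pcdhg genes and the DNA beyond it, where enhancers of the Pcdhb and Pcdhg genes are known, held the densest group of regions. Within the introns shared by the Pcdhg genes, a region from 37836397 to 37836917 had 53, 28, 52 and 32 fragments and percentiles of 41.7 to 52.4, with the Mapk8-KO percentiles inside the WT range. The 50 kb beyond the genes held 8 regions, all in introns of Diaph1, which encodes an actin-nucleating formin and is transcribed towards the cluster. The largest, 37877203 to 37878257, reached 139, 89, 146 and 98 fragments, the highest pileup of the whole span. Its percentiles were 53.9, 53.6, 46.7 and 74.6, over a local background of 8.33 to 15.5 fragments. The 2 regions next to it had 34 to 71 fragments but stood at percentiles of at most 2.46, over a local background of 9.10 to 16.3 fragments. Which gene any of these regions acts on was not measured.

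**Figure D3:**
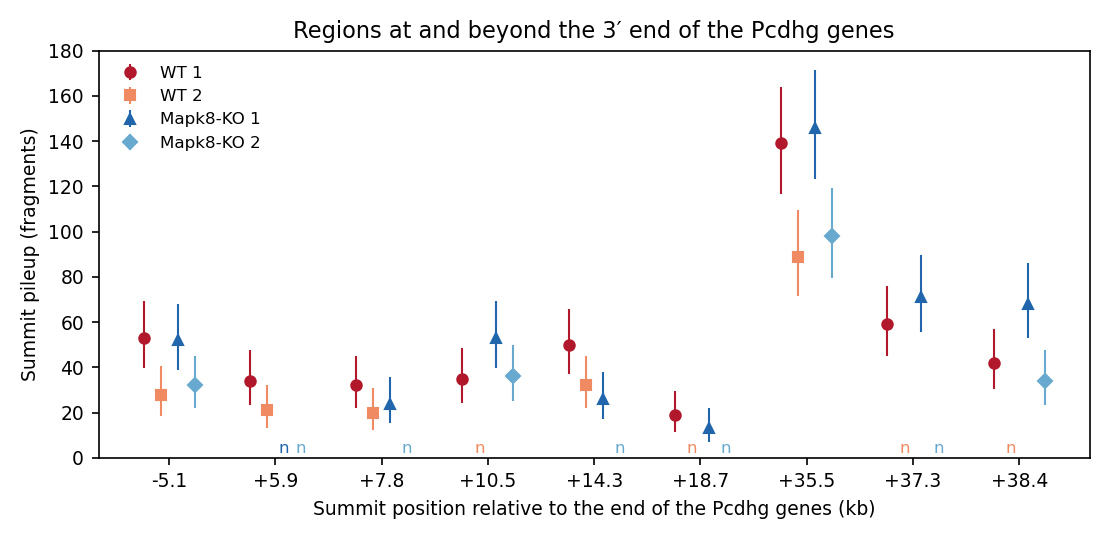
Summit pileup of the 9 regions at and beyond the 3′ end of the Pcdhg genes. The horizontal axis gives the summit position in kb relative to the end of the Pcdhg genes, in equal steps and not to scale, points are single libraries with exact 95% Poisson intervals that cover counting error only, and n marks a library that did not call the region. The region at +5.9 kb was called in the WT libraries alone, at 34 and 21 fragments.

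Calls were then compared between genotypes. Regions of the span called per library numbered 22, 14, 21 and 14, that is 18 ± 5.66 in WT and 17.5 ± 4.95 in Mapk8-KO (SD, n = 2 each). The difference of 0.5 was far smaller than the spread between libraries of a genotype. All 4 libraries called 9 regions (37.5%), against 48.6% of the atlas. In 1 region both WT libraries and neither Mapk8-KO library had a call, against 2.17% of the atlas, and in 0 regions the other way round, against 1.65%. With 2 libraries a genotype these counts turn on single libraries: 4 regions were WT-specific without Mapk8-KO 1, and 4 were Mapk8-KO-specific without WT 1.

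That WT-specific region, 37847674 to 37847910, lay in a Diaph1 intron 5.87 kb past the Pcdhg genes, with 34 and 21 fragments. A region further on, 37856037 to 37856273, with an AP-1 motif, had 50 and 32 fragments in WT and 26 in Mapk8-KO 1, and was not called in Mapk8-KO 2. Between these lay 2 regions. The first, 37849541 to 37849774, had 32 and 20 fragments in WT and 24 in Mapk8-KO 1, again with no call in Mapk8-KO 2. The second, 37852215 to 37852472, had 35 fragments in WT 1, no call in WT 2, and 53 and 36 in Mapk8-KO. Beyond them, 37860238 to 37860605 had 19 fragments in WT 1 and 13 in Mapk8-KO 1 and no call in the other libraries. Of these 5 regions, the 1 at 37852215 was called in Mapk8-KO 2 and the others were not.

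By rank, Pcdhgc4 was the 1 region of 9 whose percentiles in one genotype all lay at least 10 points from those in the other. Its lowest Mapk8-KO percentile exceeded its highest WT percentile by 24.7 points. Regions that ranked higher in Mapk8-KO by this measure made up 4.07% of all regions, and those higher in WT, of which the span had 0, made up 4.65%. Leaving out any single library left a gap of 23.7 to 28.8 points at Pcdhgc4. The count of regions higher in Mapk8-KO was 4 without Mapk8-KO 1 and 2 without any other library.

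The pileups were tested with limma on the log2 scale over all 40159 regions called in all 4 libraries. No region of the span passed limma's adjusted p of 0.05, and 0 of the 9 had an unadjusted p under 0.05, against 11.3% of all regions. Over all regions, 0.11% were called higher and 0.496% lower in Mapk8-KO. For Pcdhgc4 the log2 difference, Mapk8-KO minus WT, was 0.41 ± 0.26 (SE; limma adjusted p = 0.568). For Pcdhac2 it was 0.36 ± 0.27 (limma adjusted p = 0.654), for Pcdhgb6 0.32 ± 0.32 (limma adjusted p = 0.756) and for Pcdhgc3 0.22 ± 0.18 (limma adjusted p = 0.705). The Pcdhac2 intron had −0.25 ± 0.29 (limma adjusted p = 0.797), the only negative value of the 9, where 57.4% of all regions tested were above 0. The median over the 9 regions was 0.22, against 0.05 over all regions tested.

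**Figure D4:**
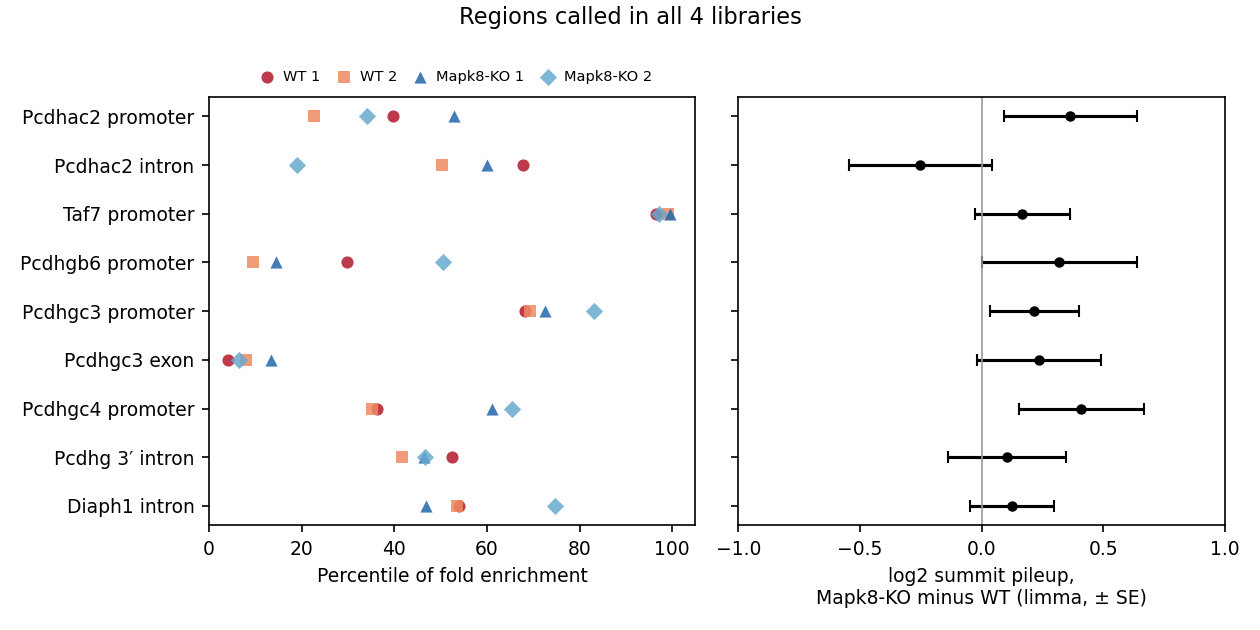
The 9 regions of the span called in all 4 libraries. The left panel gives the percentile of fold enrichment in each library, and the right panel the log2 difference in summit pileup, Mapk8-KO minus WT, with its SE from limma. Genotypes are separated by over 10 points at the Pcdhgc4 promoter alone, and no difference passed limma's test.

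Related genes were read in the same way. Of 12 non-clustered protocadherins, 8 were called in all 4 libraries, against 49.0% of all coding genes. The 8 included Pcdh10 at 97, 66, 121 and 74 fragments and Pcdh17 at 123, 97, 129 and 82. Pcdh12 was called in WT 1 alone, Pcdh1 in 2 libraries at another transcript start, and Pcdh11x and Pcdh15 in none. Of 9 classical and related cadherins, 3 were called in all 4 libraries, namely Cdh1, Cdh3 and Cdh4, against 49.0% of all coding genes. Cdh1 and Cdh3 encode the E- and P-cadherin of epithelia. Cdh2 was called in 2 libraries, Cdh6 and Cdh11 in 1 each, and Cdh5, Cdh8 and Cdh13 in none.

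Of 15 genes chosen as regulators of the clusters, 12 were called in all 4 libraries at the annotated start and 15 at any transcript start, against 49.0% and 52.2% of all coding genes. They included Ctcf at 43, 42, 67 and 41 fragments, the cohesin gene Rad21 at 73, 67, 127 and 82, and Smchd1, a chromatin silencer of the clusters, at 73, 69, 98 and 68. In the Hox genes, another family in tandem clusters, 7 of 39 were called in all 4 libraries at the annotated start and 24 in none. At any transcript start these counts were 9 and 18.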

How the data were processed

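The study aligned paired ATAC-seq reads to mm10 using Bowtie2. Only confident, single-locus alignments went into MACS2, which was run for each library without a control. The deposited peak lists hold a fold enrichment ratio, −log10 p, −log10 q, a score derived from q, and the summit offset. No correction for the Tn5 cut site is stated.

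Peaks of the 4 libraries were merged at 1 bp overlap. Gene starts came from GENCODE M21 basic, where 2 members share the symbol Pcdha11. Summit pileups were solved from the deposited fold and −log10 p, and at least 99.996% were whole to within 0.05. Python 3.11.15, SciPy 1.17.1 and limma 3.58.1 with a variance trend on median-centred log2 pileups were used, with Benjamini-Hochberg adjustment over 40159 regions, after tests on simulated data. The study describes its 2 libraries per genotype as independent samples, without saying how many mice each held. A two-sided exact permutation test of 2 against 2 could not go below p = 0.333. The members and lists were chosen with earlier results of these data known. Named were the 3 highest promoters of each group called in all 4 libraries, the C-type genes, the 8 highest other regions, promoters of neighbouring genes, and genotype-separated regions. Pcdhga6, Pcdhgb1 and regions called in fewer libraries were added after their values were seen. The alternatives concerned peak thresholds, list length, overlap, flank, promoter distance, rank measure, the replicate block, limma's settings and each library left out. A lookup of 1 further marker list is not reported here.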

Additional observations from a re-analysis of the deposited data

How the results depend on the processing

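On 19 results, 164 alternatives were run: 145 kept the direction and the side of the threshold, or stayed within the spread or 1.5 times the count, 15 moved and 4 reversed. In every setting that kept all 4 libraries, limma called 0 regions of the span. The lowest limma adjusted p was 0.536, and at most 1 region had an unadjusted p under 0.05. A fit with a library left out has 1 library in that genotype, so only log2 differences are given for it. The count of called promoters was 3 with lists of equal length, 5 without WT 2 and 4 otherwise. Pcdhga6, at 9 fragments in Mapk8-KO 2, was not called in WT 2, although WT 2 was the deeper of these.

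A q of 0.001 gave 1 Mapk8-KO-specific region. Lists of equal length gave 3 WT-specific and 1 Mapk8-KO-specific regions. Leaving out each library in turn gave 1 to 4 WT-specific regions, 0 to 4 Mapk8-KO-specific regions, 0 to 2 ranked higher in WT and 2 to 4 ranked higher in Mapk8-KO, since fewer libraries have to meet the definition. Calls per library, WT minus Mapk8-KO, ran from −3.5 to 4.5. The log2 difference in the Pcdhg 3′ intron reversed to −0.0076 when log2 fold enrichment was tested. With each library left out it ran from −0.094 (without WT 2) to 0.30 there, from −0.10 (without Mapk8-KO 2) to 0.74 at Pcdhgb6, and from −0.011 (without Mapk8-KO 2) to 0.26 in the Diaph1 intron. The cause was not tested.

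Replicate numbers recur in both genotypes, and the labels do not say whether equal numbers mark a pair. Replicate 2 minus replicate 1 had r = 0.0393 between WT and Mapk8-KO across regions. In depth, replicate 2 was the shallower library of both genotypes. With the replicate block, 2 regions ranked higher in Mapk8-KO, Pcdhgc4 and Pcdhac2, paired differences in calls were 1 and 0, and limma called 102 regions higher and 284 lower in Mapk8-KO over the atlas, in place of 44 and 199. No call in the span changed with the block in limma. Without a variance trend, limma called 0 regions of the atlas, with 3987 unadjusted p under 0.05. With quantile normalization it called 3 higher and 26 lower in Mapk8-KO, and with log2 fold enrichment 0 in either direction. The counts over the atlas thus depended on the setting.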
